A study of Mus musculus with 13 samples.

Results

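The genes described here are 47 members of the Wnt signaling pathway, taken by a list of gene symbols: 16 Wnt ligands, 12 receptors, 6 R-spondins and LGR receptors, 7 secreted antagonists, 5 intracellular and membrane feedback genes, and Prickle2 of the planar cell polarity branch. All 47 were found among the 46679 gene IDs of the deposited tables. They were followed through 13 RNA sequencing libraries of female FVB mice aged 10 weeks. The mammary tumors (3 libraries, mice 6877, 6880 and 6881) grew from 250000 cells of Met1, a line derived from a mammary tumor of an FVB mouse carrying the polyoma middle T antigen under the mouse mammary tumor virus promoter, placed in the inguinal mammary fat pads at 8 weeks of age and taken 2 weeks later. The tumors are thus all of 1 cell line, in hosts of the same strain. The tumor-bearing lungs (4 libraries) came from those 3 mice and from mouse 6879. The normal lungs (6 libraries) came from 4 mice without a tumor, of which 6886 and 6888 were prepared in both preparation batches. These 2 mice count once each in every mean and in the main tests. Medians and ranges of normal lungs cover all 6 libraries unless a batch is named. An alternative fit over all 13 libraries, with the mouse as a block, also enters both of their libraries. All 3 tumors, tumor-bearing lung 6877 and 4 normal lung libraries were prepared in batch 2, and the other 3 tumor-bearing and 2 normal lung libraries in batch 1.

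Wnt proteins are secreted glycoproteins that carry a lipid and bind Frizzled receptors on nearby cells. Together with the co-receptors Lrp5 and Lrp6, many of them keep beta-catenin from being degraded, and beta-catenin then activates genes with TCF/LEF factors, while other Wnt signals act on cell polarity and movement without beta-catenin. Several genes switched on by the pathway, among them Axin2, Nkd1, Notum, Znrf3 and Rnf43, damp it in turn. In the lung, Wnt signals guide the growth of the airways and maintain alveolar epithelial cells, and in the mammary gland they support stem cells and, when overactive, tumors.

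Libraries held 8321037 to 13982903 estimated counts. Summed markers of alveolar type 2 cells stood at 207 to 329 CPM (counts scaled to library size with TMM factors) in the tumors, 6660 to 15500 CPM in tumor-bearing lungs and 10400 to 16200 CPM in normal lungs, and those of mammary luminal epithelium at 1120 to 1640, 392 to 588 and 460 to 595 CPM in the same order of groups. Of the 14 luminal markers, 8 were higher and 3 lower in tumors against normal lungs (edgeR adjusted p under 0.05). Summed markers of mammary basal and myoepithelial cells overlapped between the groups, at 285 to 312, 250 to 442 and 269 to 439 CPM in the same order. Of the 6 basal and myoepithelial markers tested, 3 were higher and 2 lower in tumors against normal lungs by the same test. Markers of heart muscle varied among lungs, from 26.1 to 940 CPM in tumor-bearing and from 21.2 to 613 CPM in normal lungs. Protein-coding genes made up 1.77 to 6.99% of the deposited TPM, and the other annotated RNAs and unnamed IDs the rest. Levels between genes are therefore given per length as coding TPM, the deposited TPM rescaled so that the protein-coding genes of a library have the sum that all its genes had before.

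Most members were detected, and the Wnt ligands and receptors in use differed between tumors and lungs. Wnt1 had no count in any library, and 7 of 47 members stayed under 10 counts in every library. By summed coding TPM, the 16 ligands reached 22.7 to 43.7 in the tumors, 68.6 to 119 in tumor-bearing lungs and 45.8 to 101 in normal lungs. These sums do not overlap between the tumors and either kind of lung. The 10 Frizzled receptors summed to 64.8 to 120 coding TPM in the tumors, 93.0 to 198 in tumor-bearing lungs and 71.0 to 158 in normal lungs, ranges that overlap.

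One ligand dominated the tumors. Wnt7b, which signals through beta-catenin in the developing lung, made up 48.7 to 66.9% of the summed ligand TPM of a tumor, 0.88 to 1.61% in tumor-bearing lungs and 1.5 to 2.42% in normal lungs. The lungs shared their ligand level out among Wnt7a, Wnt5a, Wnt2, Wnt3a and Wnt11. Medians in tumor-bearing and normal lungs were 20.9% and 24.0% for Wnt7a, 19.7% and 20.3% for Wnt5a, and 16.1% and 14.5% for Wnt2. They were 10.6% and 9.69% for Wnt3a and 10.4% and 8.30% for Wnt11. Wnt7a ran from 5.68 to 35.1% in tumor-bearing and from 13.1 to 32.7% in normal lungs. Wnt5a ran from 9.98 to 33.7% and from 10.8 to 30.2%, so the leading ligand differed between lung libraries. Among the Frizzled receptors, Fzd7 held 39.7 to 42.9% of the tumors' summed TPM, 16 to 19.9% in tumor-bearing lungs and 16 to 19.2% in normal lungs. Fzd9 held 9.45 to 14.7% in the tumors and at most 0.156% and 0.321% in tumor-bearing and normal lungs. Fzd4 and Fzd1 were the leading Frizzled receptors of normal lung, with medians of 4.82% and 6.25% in the tumors, 20.8% and 22.5% in tumor-bearing lungs, and 23.7% and 21.5% in normal lungs. These shares compare genes within a library, so that no scaling between libraries enters them.

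**Figure D1:**
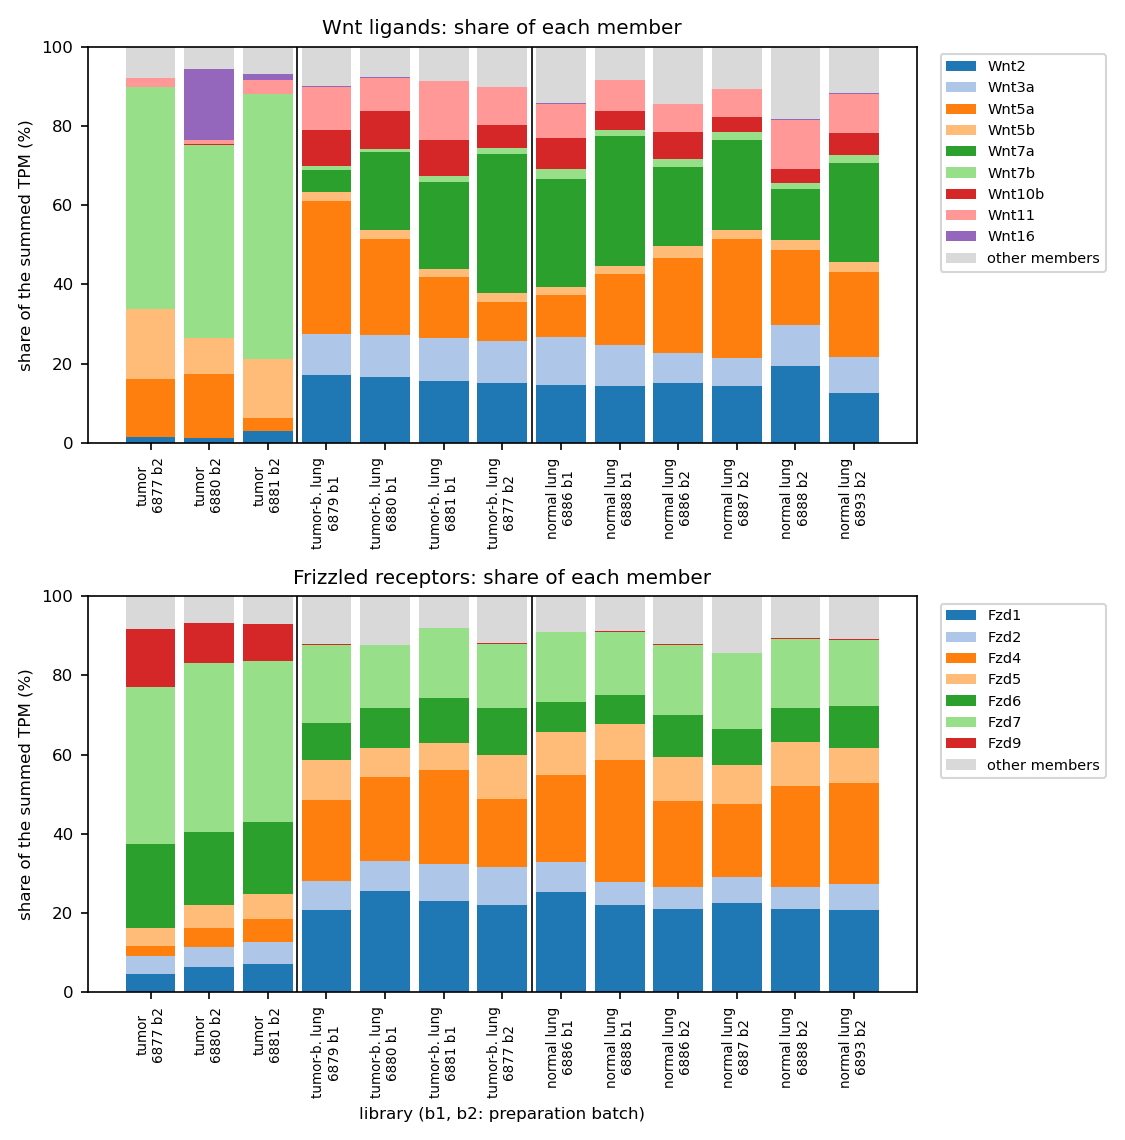
Share of each member in the summed deposited TPM of the 16 Wnt ligands (top) and of the 10 Frizzled receptors (bottom), in percent, with 1 bar per library, tumors at the left, tumor-bearing lungs in the middle and normal lungs at the right. Wnt7b fills 48.7 to 66.9% of the ligand bar and Fzd7 39.7 to 42.9% of the Frizzled bar in the tumors.

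Over all 47 members, the highest mean levels in the tumors were those of Lrp5 (36.9 ± 6.42 coding TPM), Fzd7 (36.0 ± 13.4), Lrp6 (29.0 ± 6.04), Lgr6 (26.5 ± 4.67) and Sfrp2 (26.5 ± 17; SD, n = 3). In tumor-bearing lungs they were those of Axin2 (54.3 ± 15.1 coding TPM), Lrp5 (53.4 ± 15.8), Lrp6 (50.3 ± 16), Prickle2 (43.1 ± 10.0) and Nkd1 (41.9 ± 9.96; SD, n = 4). The same 5 genes led in normal lungs, where Lrp5 stood at 50.0 ± 19.4, Nkd1 at 44.9 ± 12.5, Lrp6 at 44.5 ± 11.7, Prickle2 at 39.3 ± 7.78 and Axin2 at 36.0 ± 8.54 coding TPM (SD, n = 4). Within each of these lists of 5, neighbours in the order differ by less than the larger of their SDs. Axin2, Nkd1 and Prickle2 ranked 23rd, 38th and 35th among the members in the tumors, at 3.16 ± 0.137, 0.221 ± 0.0506 and 0.355 ± 0.0823 coding TPM (SD, n = 3).

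**Figure D2:**
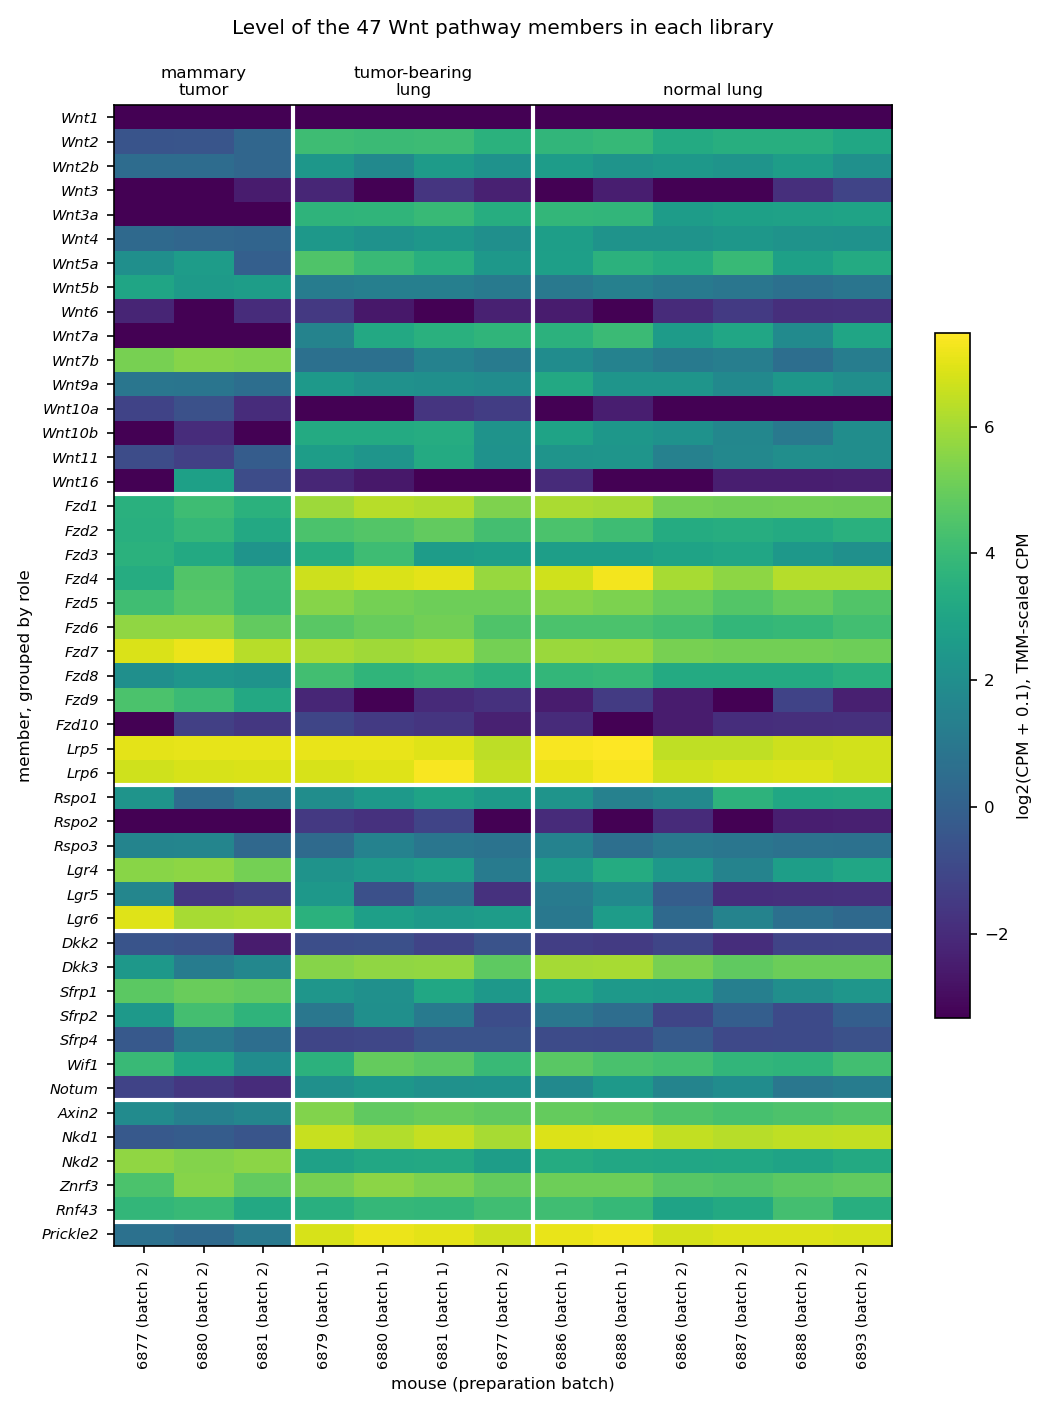
Level of each of the 47 members (rows, grouped by role) in each of the 13 libraries (columns), as log2(CPM + 0.1) with TMM-scaled CPM. Fzd9, Wnt7b, Lgr6 and Nkd2 are bright in the 3 tumor columns, and Wnt3a, Wnt7a, Nkd1 and Prickle2 are bright in the 10 lung columns.

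The promoters of Wnt11, Fzd7 and Axin2 are shown because TCF/LEF factors bind DNA and these genes, whose values follow, are a ligand, a receptor and a feedback gene. Each line is the 250 bases before the transcription start in RefSeq, on the plus strand of build GRCm38.p6: Wnt11 at chr7:98834862-98835111, Fzd7 at chr1:59481897-59482146 and Axin2 at chr11:108920099-108920348. Capitals mark a match to the TCF/LEF core, searched on both strands in the form CTTTGAA, in the form CTTTGAT, in the form CTTTGTA and in the form CTTTGTT.
Wnt11: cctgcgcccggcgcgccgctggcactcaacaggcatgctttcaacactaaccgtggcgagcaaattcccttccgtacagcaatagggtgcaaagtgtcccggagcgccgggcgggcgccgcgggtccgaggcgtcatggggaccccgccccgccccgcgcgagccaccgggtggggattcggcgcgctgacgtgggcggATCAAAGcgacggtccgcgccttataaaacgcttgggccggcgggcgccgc
Fzd7: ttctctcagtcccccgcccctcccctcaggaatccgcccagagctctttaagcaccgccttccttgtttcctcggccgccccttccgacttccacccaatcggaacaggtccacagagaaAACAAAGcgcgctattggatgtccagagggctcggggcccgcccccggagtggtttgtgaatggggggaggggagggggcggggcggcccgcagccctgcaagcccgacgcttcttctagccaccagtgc
Axin2: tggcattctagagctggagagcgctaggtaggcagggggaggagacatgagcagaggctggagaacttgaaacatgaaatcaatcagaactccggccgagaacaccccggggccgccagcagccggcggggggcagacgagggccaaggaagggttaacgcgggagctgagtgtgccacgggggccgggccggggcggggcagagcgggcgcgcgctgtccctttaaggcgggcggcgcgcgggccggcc
Wnt11 holds CTTTGAT at position -51 and Fzd7 holds CTTTGTT at position -130, counted from the start. Both lie on the minus strand, so the printed plus strand shows their reverse complements. Axin2 holds no match in this window. RefSeq windows of 300 bases, 250 before and 50 after a start, were at hand for 30 of the 47 members, and 5 of their 37 windows (13.5%) held a match. The share over all 32851 windows was 16.9%. The other matches lay at Wnt3 and at internal starts of Wnt5b and Prickle2. The median GC content was 66.3% for the members' windows and 52.7% for all windows. A match is a stretch of letters and no measure of binding.

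Comparing tumors with lungs asks how the pathway differs between the primary tumor and the organ to which this type of tumor spreads. In tumors against normal lungs, 38 members had enough counts to be tested, and 11 were higher and 17 lower at an adjusted p under 0.05 (edgeR's quasi-likelihood test with preparation batch as a term, Benjamini-Hochberg over all genes tested). That is 73.7% of the members tested, where 49.3% of all 18297 genes tested passed, 24.5% higher and 24.7% lower. The median log2 fold change was -0.62 for the members and -0.04 for all genes. The member list was drawn up with earlier results of these data known, so these shares and medians describe the list and do not test the pathway. In tumors against tumor-bearing lungs, 11 of the same 38 members were higher and 16 lower (71.1%, with 46.3% of all genes, 22.6% higher and 23.7% lower), and the median was -0.68, with -0.10 for all genes. On log2(TPM + 1) with limma this second comparison called 11 higher and 3 lower. Both comparisons use the same 3 tumors, and 11 members passed as higher and 16 as lower in both. The 9 members not tested for their low counts were Wnt1, Wnt3, Wnt6, Wnt10a, Wnt16, Fzd10, Rspo2, Dkk2 and Sfrp4. In whole tissue, fewer cells of a type and less RNA per cell cannot be told apart. No normal mammary tissue is among the libraries, so tissue of origin and tumor state cannot be told apart either. Rose and fell below mean higher and lower in tumors than in lungs. The labels give each library's mouse, so that p-values measure the spread between mice.

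**Figure D3:**
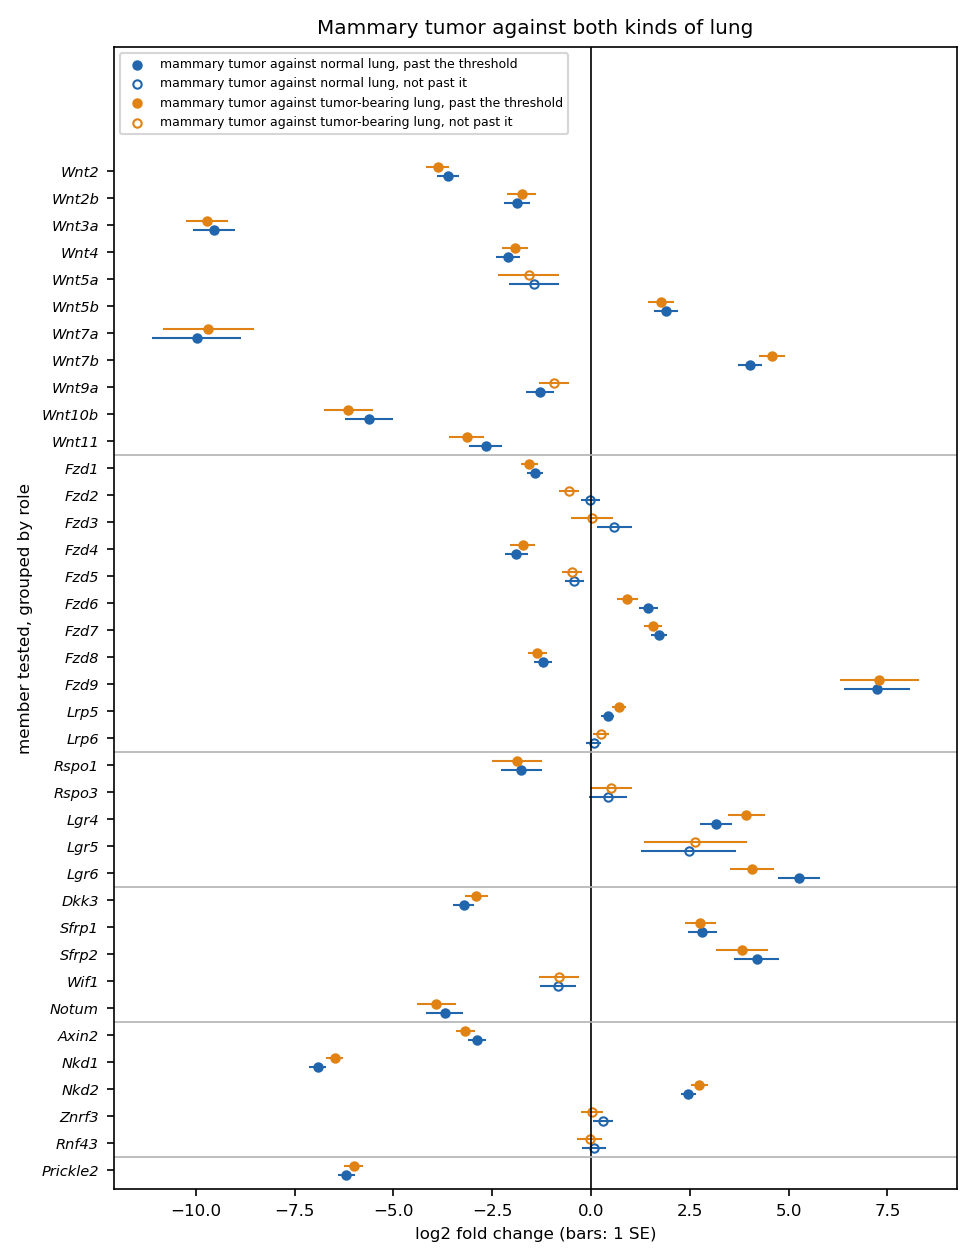
Log2 fold change (horizontal axis, bars of 1 SE) of the 38 members tested, grouped by role, for tumors against normal lungs (blue) and against tumor-bearing lungs (orange); filled circles passed an adjusted p of 0.05. The points of Wnt3a, Wnt7a and Wnt10b are fitted values for genes with 0 to 2 counts in the tumors and depend on the prior count.

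Ligands: 2 of the 11 tested rose in tumors against normal lungs, Wnt7b and Wnt5b, and 8 fell, with a median log2 fold change of -2.10. Wnt7b (chromosome 15, 85535437 to 85582473 on GRCm38) stood at 38.1, 45.5 and 42.4 CPM in tumors 6877, 6880 and 6881. It stood at 1.49, 1.48, 2.67 and 2.13 CPM in tumor-bearing lungs 6879, 6880, 6881 and 6877, and at 1.41 to 3.74 CPM in normal lungs, with a median of 2.33. Every tumor lay more than 10-fold above every lung. Wnt7b had a log2 fold change of 4.03 (SE 0.30, edgeR adjusted p = 8.18e-07) against normal lungs and 4.57 (SE 0.33, adjusted p = 9.55e-07) against tumor-bearing lungs. Wnt5b, a ligand of the branch without beta-catenin, stood at 8.07, 5.75 and 6.36 CPM in the tumors, at 2.24, 2.44, 2.45 and 2.03 CPM in tumor-bearing lungs and at 1.5 to 2.48 CPM (median 1.88) in normal lungs, again without overlap. Its log2 fold changes were 1.90 (SE 0.30, edgeR adjusted p = 2.73e-04) and 1.77 (SE 0.33, adjusted p = 0.0011).

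Wnt3a and Wnt7a were not detected in any tumor. Wnt3a, the classical activator of beta-catenin signaling in cell culture, had 0 counts in all 3 tumors and stood at 13, 13.1, 15.2 and 10.5 CPM in tumor-bearing lungs and 6.19 to 14.1 CPM (median 7.45) in normal lungs. With 3 counts over the 3 tumors as the floor (0.0877 CPM), counts summed over both batches were at least 122-fold lower than in normal and at least 150-fold lower than in tumor-bearing lungs. These folds carry no batch term. Normal lungs stood at 6.19 to 7.67 CPM in batch 2 and at 13.8 and 14.1 CPM in batch 1, so the fold against batch 2 normal lungs is smaller. The fit with a batch term gave edgeR adjusted p of 5.4e-07 and 7.55e-07. Wnt7a, a near relative of Wnt7b, also had 0 counts in all 3 tumors, with 2.73, 9.12, 11.5 and 13.1 CPM in tumor-bearing lungs and 3.44 to 16.1 CPM (median 8.17) in normal lungs. By the same summed counts Wnt7a was at least 127-fold lower than in normal and at least 109-fold lower than in tumor-bearing lungs, again with no batch term. Its normal lungs stood at 3.44 to 8.31 CPM in batch 2 and at 12.1 and 16.1 CPM in batch 1. The fit with a batch term gave Wnt7a edgeR adjusted p of 5.97e-05 and 9.89e-05. The related pair Wnt7a and Wnt7b thus lay on opposite sides in these tissues, each without overlap between tumors and lungs.

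Wnt10b, which activates beta-catenin signaling in mammary and fat tissue, had 0, 2 and 0 counts in tumors 6877, 6880 and 6881. It stood at 9.44, 9.5, 10.2 and 4.54 CPM in tumor-bearing lungs and at 1.94 to 7.63 CPM (median 4.16) in normal lungs. By summed counts, Wnt10b was lower in the tumors by a ratio of 85.6 (exact 95% counting interval 23.4 to 711) against normal lungs and of 147 (40.5 to 1220) against tumor-bearing lungs. Both the bounds above and this interval use counts summed over mice, so they leave out the spread between mice. Amplified reads were not tagged by molecule, so the counting error itself is approximate. The ratios carry no batch term, and normal lungs stood at 1.94 to 4.48 CPM in batch 2 and at 5.14 and 7.63 CPM in batch 1 for Wnt10b. The fit gave Wnt10b an adjusted p of 1.48e-05 and 1.28e-05 (edgeR), and without tumor 6880 no tumor has a count of it.

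Wnt2, made by the mesenchyme of the developing lung, stood at 0.593, 0.621 and 1.09 CPM in the tumors, at 17.3, 16.4, 17 and 11.8 CPM in tumor-bearing lungs and at 8.4 to 14.8 CPM (median 10.8) in normal lungs. Its log2 fold change was -3.62 (SE 0.28, edgeR adjusted p = 1e-06) against normal lungs and -3.88 (SE 0.29, adjusted p = 1.32e-06) against tumor-bearing lungs. Wnt11, which acts on cell movement and polarity, stood at 0.475, 0.311 and 0.776 CPM in the tumors, at 6.33, 4.82, 9.52 and 4.45 CPM in tumor-bearing lungs and at 2.61 to 4.79 CPM (median 3.90) in normal lungs. Both genes were lower in every tumor than in every lung, and Wnt11 had log2 fold changes of -2.67 (SE 0.42, edgeR adjusted p = 2.65e-04) and -3.15 (SE 0.45, adjusted p = 1.63e-04). An exon of Wnt11 overlaps a pseudogene on the opposite strand, and the strand use of the counting is not stated, so its counts are uncertain by that much.

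Wnt4, the ligand that acts downstream of progesterone in the mammary gland, stood at 1.19, 1.09 and 1.01 CPM in the tumors, at 5.34, 4.49, 5.19 and 4.06 CPM in tumor-bearing lungs and at 4.48 to 6.49 CPM (median 4.60) in normal lungs. Wnt2b stood at 1.30, 1.32 and 1.09 CPM in the tumors, at 5.09, 3.40, 5.91 and 4.45 CPM in tumor-bearing lungs and at 4.11 to 6.26 CPM (median 4.99) in normal lungs. Both fell, Wnt4 by 2.10 and Wnt2b by 1.87 on the log2 scale against normal lungs, and by 1.93 and 1.76 against tumor-bearing lungs (edgeR adjusted p of 1.25e-04, 5.78e-04, 5.28e-04 and 0.00169 in this order). Wnt9a, at 1.78, 1.71 and 1.40 CPM in the tumors and 3.39 to 9.01 CPM (median 4.82) in the normal lungs, fell by 1.30 against normal lungs (SE 0.35, edgeR adjusted p = 0.00922). Against tumor-bearing lungs, at 5.59, 4.30, 4.04 and 3.67 CPM, Wnt9a had a log2 fold change of -0.93 (SE 0.38, edgeR adjusted p = 0.0644) and did not pass. With the mouse as a block it did, both in the 3 pairs (-1.35, edgeR adjusted p = 0.0399) and over all 13 libraries with limma voom (-0.96, adjusted p = 0.0378). The fit of the 3 pairs has no batch term. In mice 6880 and 6881 the tumor was prepared in batch 2 and the lung in batch 1, so pairing and batch cannot be told apart there.

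The genes of Wnt3a and Wnt9a lie side by side on chromosome 11, 16175 bases apart and in opposite directions, and both were lower in the tumors against normal lungs. Wnt10b and Wnt1 lie 11706 bases apart on chromosome 15; Wnt10b was among the lung ligands and Wnt1 was at 0 in all 13 libraries. Wnt6 and Wnt10a, 6193 bases apart on chromosome 1, were both too low to test.

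Wnt5a and Wnt16 varied among the tumors themselves. Wnt5a, the main ligand of the branch without beta-catenin, stood at 4.03, 6.06 and 0.853 CPM in tumors 6877, 6880 and 6881, at 22.4, 15.6, 11.1 and 5.22 CPM in tumor-bearing lungs 6879, 6880, 6881 and 6877, and at 6.72 to 15.3 CPM (median 9.84) in normal lungs. The log2 fold change of Wnt5a was -1.45 (SE 0.63, edgeR adjusted p = 0.0758) against normal lungs and -1.58 (SE 0.77, adjusted p = 0.116) against tumor-bearing lungs. It did not pass in either comparison, though with the batch 2 libraries alone it did against normal lungs, at -1.51 with an adjusted p of 0.0376. With the mouse as a block over all 13 libraries (limma voom), Wnt5a passed in both, at -1.65 (adjusted p = 0.0238) and -1.81 (adjusted p = 0.0356). Wnt16 had 0, 90 and 6 counts in tumors 6877, 6880 and 6881 and at most 2 counts in each lung, so that 1 tumor carried nearly all of it, and it was not tested.

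Receptors: 4 of the 11 tested rose in both comparisons of tumors (Fzd9, Fzd7, Fzd6 and Lrp5), 3 fell in both (Fzd4, Fzd1 and Fzd8), and Fzd2, Fzd3, Fzd5 and Lrp6 passed in neither. Fzd9, a Frizzled receptor best known from brain and bone, stood at 21.2, 16.2 and 9.15 CPM in tumors 6877, 6880 and 6881. It stood at 0.124, 0, 0.144 and 0.193 CPM in tumor-bearing lungs and at 0 to 0.352 CPM (median 0.0838) in normal lungs. Every tumor was far above every lung. Fzd9 had a log2 fold change of 7.23 (SE 0.84, edgeR adjusted p = 2.5e-05) against normal and 7.29 (SE 1.00, adjusted p = 1.14e-04) against tumor-bearing lungs. Its size rests on the few counts in the lungs and on the batch term. Against normal lungs, leaving out normal lung 6887 gave 6.48 and leaving out tumor-bearing lung 6877 gave 8.15. Lung 6877 is the only tumor-bearing lung of batch 2 and enters the comparison with normal lungs only through the shared fit. With batch 2 libraries alone the values were 6.83 against normal and 6.19 against tumor-bearing lung. Against tumor-bearing lungs, leaving out normal lung 6888 gave 6.66 and leaving out tumor-bearing lung 6877 gave 9.09.

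Fzd7 (chromosome 1, 59482424 to 59486955) was the leading Frizzled receptor of the tumors, at 117, 142 and 80.1 CPM. It stood at 68.0, 60.2, 66.9 and 36.5 CPM in tumor-bearing lungs and at 34.2 to 57.1 CPM (median 36.7) in normal lungs. Its promoter shown above ends at a RefSeq start that lies upstream of the gene start given here. Fzd6, which works in planar cell polarity and hair patterning, stood at 51.8, 50.4 and 29.7 CPM in the tumors, at 26.2, 31.3, 36.1 and 22.5 CPM in tumor-bearing lungs and at 14.2 to 21.2 CPM (median 18.4) in normal lungs. The tumors lay above all lungs for Fzd7 and above all normal lungs for Fzd6, but tumor 6881 lay below 2 of the tumor-bearing lungs for Fzd6. Fzd7 had log2 fold changes of 1.72 (SE 0.21, edgeR adjusted p = 3.58e-05) and 1.57 (SE 0.23, adjusted p = 2.17e-04). Fzd6 had 1.45 (SE 0.24, edgeR adjusted p = 3.74e-04) against normal and 0.92 (SE 0.27, adjusted p = 0.0141) against tumor-bearing lungs. This last call was lost without tumor-bearing lung 6877 (0.87, edgeR adjusted p = 0.0919). It was also lost with the 3 mice as a block and no batch term (0.49, edgeR adjusted p = 0.247).

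Fzd4, the receptor for norrin in blood vessels, stood at 10.3, 23.1 and 16.9 CPM in the tumors, at 101, 116, 131 and 56.1 CPM in tumor-bearing lungs and at 49.3 to 155 CPM (median 76.1) in normal lungs. Its log2 fold changes were -1.89 (SE 0.30, edgeR adjusted p = 2.59e-04) and -1.73 (SE 0.32, adjusted p = 0.001). Fzd1 stood at 11.3, 17.1 and 11.7 CPM in the tumors, at 58.6, 79.3, 72.8 and 41.3 CPM in tumor-bearing lungs and at 34.5 to 68.2 CPM (median 36.0) in normal lungs. Fzd8 stood at 4.03, 5.05 and 4.58 CPM in the tumors, at 18.1, 13.2, 15.1 and 12.1 CPM in tumor-bearing lungs and at 9.5 to 15.1 CPM (median 10.6) in normal lungs. Fzd1 fell by 1.42 (SE 0.20) and 1.56 (SE 0.22), and Fzd8 by 1.22 (SE 0.22) and 1.36 (SE 0.24) on the log2 scale against normal and tumor-bearing lungs, with edgeR adjusted p of at most 6.23e-04. The tumors lay below every lung for all 3 genes. Summed endothelial markers moved with Fzd4, at 98.0 to 136 CPM in the tumors, 1960 to 3280 CPM in tumor-bearing lungs and 1960 to 4070 CPM in normal lungs, and 12 of 12 of these markers fell in both comparisons; their part in the result was not tested.

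The co-receptors Lrp5 and Lrp6, which the beta-catenin branch needs, changed little in proportion. Lrp5 stood at 132, 134 and 133 CPM in the tumors, at 138, 140, 124 and 85.2 CPM in tumor-bearing lungs and at 86.6 to 177 CPM (median 104) in normal lungs. The groups overlap, and every batch 1 lung (124 to 177 CPM) was above every batch 2 lung (85.2 to 107 CPM). With the batch term the log2 fold change of Lrp5 was 0.42 (SE 0.16, edgeR adjusted p = 0.0414) against normal and 0.71 (SE 0.17, adjusted p = 0.00536) against tumor-bearing lungs, within batch 2 alone 0.50 (adjusted p = 0.0118) and 0.59 (adjusted p = 0.273), and without a batch term -0.0088 (adjusted p = 0.982) and 0.13 (adjusted p = 0.713). Against normal lungs the call of Lrp5 was lost in 8 of the 11 fits that left out a library, with adjusted p up to 0.211 without normal lung 6887. With the 3 mice as a block and no batch term, the log2 fold change of Lrp5 was 0.18 (edgeR adjusted p = 0.579) against tumor-bearing lungs. Lrp6 stood at 104, 113 and 115 CPM in the tumors, at 112, 122, 166 and 90.5 CPM in tumor-bearing lungs and at 102 to 159 CPM (median 115) in normal lungs, and its log2 fold changes of 0.064 (SE 0.18) and 0.25 (SE 0.20) did not pass (edgeR adjusted p = 0.793 and 0.335). Of the other receptors that passed in neither, Fzd2 stood at 11.5 ± 2.71, 23.4 ± 4.72 and 15.0 ± 4.91 CPM, Fzd3 at 8.57 ± 3.6, 10.2 ± 5.19 and 6.39 ± 1.68 CPM and Fzd5 at 19.6 ± 4.43, 37.4 ± 5.50 and 33.5 ± 11.7 CPM in tumors, tumor-bearing and normal lungs (SD, n = 3, 4 and 4). With the 3 mice as a block and no batch term, Fzd2 and Fzd5 passed against tumor-bearing lungs, at -1.11 (edgeR adjusted p = 0.0199) and -0.89 (adjusted p = 0.0151). The main design without its batch term gave -1.02 and -0.93, and with it -0.55 and -0.49, so these calls cannot be credited to pairing. With the mouse as a block over all 13 libraries (limma voom), Fzd5 passed against normal lungs (-0.51, adjusted p = 0.0314).

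R-spondins and their receptors: 2 of the 5 tested rose, the receptors Lgr6 and Lgr4, and 1 fell, Rspo1. R-spondins are secreted proteins that bind Lgr4, Lgr5 and Lgr6 and spare Frizzled receptors from removal by Znrf3 and Rnf43. Lgr6 (chromosome 1, 134983301 to 135105276), a marker of stem cells in skin, stood at 122, 65.6 and 71.3 CPM in tumors 6877, 6880 and 6881, at 11.9, 6.68, 5.48 and 6.09 CPM in tumor-bearing lungs 6879, 6880, 6881 and 6877, and at 1.19 to 6.2 CPM (median 1.70) in normal lungs. Lgr4, the most widely expressed of these receptors, stood at 46.5, 49.2 and 37.4 CPM in the tumors, at 4.59, 5.39, 6.71 and 2.13 CPM in tumor-bearing lungs and at 2.71 to 10.0 CPM (median 6.32) in normal lungs. All 3 tumors lay above all lungs for both genes. The log2 fold changes were 5.27 (SE 0.53, edgeR adjusted p = 8.93e-06) and 4.07 (SE 0.55, adjusted p = 1.05e-04) for Lgr6, and 3.16 (SE 0.40, adjusted p = 4.88e-05) and 3.93 (SE 0.47, adjusted p = 4.16e-05) for Lgr4, against normal and tumor-bearing lungs. Without normal lung 6893 the value of Lgr4 against normal lungs was 3.96.

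The ligand Rspo1 stood at 4.75, 1.32 and 2.02 CPM in the tumors, at 3.85, 5.52, 7.5 and 5.80 CPM in tumor-bearing lungs and at 2.57 to 12.5 CPM (median 6.6) in normal lungs, and the groups overlap through tumor 6877. It fell by 1.77 (SE 0.52, edgeR adjusted p = 0.0145) and 1.88 (SE 0.63, adjusted p = 0.0278) on the log2 scale. The first call of Rspo1 did not survive leaving out normal lung 6887 (-1.41, adjusted p = 0.0749) or tumor 6881 (-1.60, adjusted p = 0.0519). The second did not survive leaving out any of normal lungs 6886, 6887 and 6888 and tumors 6880 and 6881 (-1.54 to -1.87, edgeR adjusted p 0.0515 to 0.0712). Nor did it pass with the 3 mice as a block and no batch term (-1.45, edgeR adjusted p = 0.0515). Without tumor 6877 the values were -2.42 and -2.52, and without tumor-bearing lung 6877 the second was -2.68. Rspo3 stood at 1.16 to 2.87 CPM in the tumors, 1.24 to 2.63 in tumor-bearing and 1.42 to 2.67 in normal lungs and passed in neither comparison. Lgr5, the intestinal stem cell marker, stood at 2.97, 0.233 and 0.310 CPM in the tumors and at up to 5.22 and 3.37 CPM in tumor-bearing and normal lungs. Its fitted log2 fold changes of 2.47 and 2.64 (SE 1.21 and 1.31, edgeR adjusted p = 0.111 and 0.121) come with a batch term and are of the opposite sign to the plain means of 1.17, 1.88 and 1.46 CPM in tumors, tumor-bearing and normal lungs.

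Secreted antagonists: of the 5 tested, Sfrp1 and Sfrp2, which bind Wnt proteins outside the cell, rose in the tumors, and Dkk3 and Notum fell. Sfrp1 stood at 26.9, 31.5 and 29.0 CPM in the tumors, at 4.97, 4.17, 8.44 and 5.22 CPM in tumor-bearing lungs and at 2.46 to 7.86 CPM (median 5.08) in normal lungs. Sfrp2 stood at 5.69, 18.7 and 12.8 CPM in the tumors, at 1.86, 4.05, 2.02 and 0.483 CPM in tumor-bearing lungs and at 0.373 to 1.83 CPM (median 0.835) in normal lungs. Neither gene's tumors overlap with any lung. The log2 fold changes were 2.82 (SE 0.36) and 2.76 (SE 0.39) for Sfrp1 and 4.19 (SE 0.57) and 3.82 (SE 0.66) for Sfrp2, with edgeR adjusted p of 5.81e-05 to 5.75e-04. Without tumor-bearing lung 6877 the second value of Sfrp2 was 3.13. Markers of tumor-associated fibroblasts summed to 623 to 660 CPM in the tumors, 139 to 370 in tumor-bearing and 146 to 406 CPM in normal lungs. In tumors 6 of 10 were higher against normal lungs, 7 of 10 against tumor-bearing lungs and none was at 0. Adipocyte and fat pad markers summed to 107 to 284, 4.49 to 16.5 and 5.8 to 25.2 CPM in the same order. Of the 6 tested, 6 were higher against normal and 4 against tumor-bearing lungs. The part of either list in the values of Sfrp1 and Sfrp2 was not tested.

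Dkk3, a secreted protein of the Dickkopf family, stood at 5.22, 2.18 and 3.10 CPM in the tumors, at 45.4, 51.4, 51.9 and 27.4 CPM in tumor-bearing lungs and at 28.4 to 65.8 CPM (median 35.5) in normal lungs. Notum, an enzyme that strips the lipid from Wnt proteins and is itself a target of the pathway, stood at 0.356, 0.233 and 0.155 CPM in the tumors, at 4.22, 5.07, 4.26 and 4.45 CPM in tumor-bearing lungs and at 1.85 to 5.67 CPM (median 3.10) in normal lungs. Both were lower in every tumor than in every lung. Dkk3 had log2 fold changes of -3.22 (SE 0.27, edgeR adjusted p = 2.18e-06) and -2.90 (SE 0.29, adjusted p = 1.01e-05), and Notum of -3.70 (SE 0.47, adjusted p = 5.23e-05) and -3.92 (SE 0.49, adjusted p = 5.62e-05). Wif1, another Wnt-binding antagonist, stood at 15.7, 8.08 and 3.65 CPM in the tumors, at 12.3 to 30.2 CPM in tumor-bearing and at 13 to 26.0 CPM in normal lungs, and did not pass (-0.83 and -0.81, edgeR adjusted p = 0.163 and 0.218). With the mouse as a block over all 13 libraries (limma voom), Wif1 passed against normal lungs (-1.11, adjusted p = 0.0222). Sfrp4 and Dkk2 were too low to test, at 0.712 to 1.94 and 0.0776 to 0.593 CPM in the tumors.

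Feedback genes: of the 5 tested, Nkd1 and Axin2 fell and Nkd2 rose in the tumors, while Znrf3 and Rnf43 passed in neither comparison. Nkd1 (chromosome 8, 88521354 to 88594884), which binds Dishevelled and damps Wnt signaling, stood at 0.712, 0.777 and 0.620 CPM in the tumors. It stood at 93.9, 74.2, 91.0 and 67.4 CPM in tumor-bearing lungs 6879, 6880, 6881 and 6877, and at 80.0 to 124 CPM (median 88.4) in normal lungs. The second highest member of normal lung was thus close to absent from the tumors, with 6, 10 and 8 counts. The log2 fold change of Nkd1 was -6.92 (SE 0.22, edgeR adjusted p = 5.11e-09) against normal and -6.49 (SE 0.22, adjusted p = 1.02e-08) against tumor-bearing lungs, and -6.89 and -6.61 with batch 2 alone.

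Nkd2, the paralog of Nkd1, lay on the other side. It stood at 50.5, 43.6 and 48.0 CPM in the tumors, at 7.20, 8.80, 9.09 and 6.38 CPM in tumor-bearing lungs and at 7.67 to 10.0 CPM (median 8.62) in normal lungs. Its log2 fold changes were 2.46 (SE 0.19, edgeR adjusted p = 1.01e-06) and 2.74 (SE 0.22, adjusted p = 1.82e-06). Per length, the summed Nkd1 and Nkd2 of the tumors was almost all Nkd2, at 19.8 ± 2.07 coding TPM with 0.221 ± 0.0506 of Nkd1 (SD, n = 3), whereas normal lungs held 5.10 ± 0.559 of Nkd2 and 44.9 ± 12.5 of Nkd1 (SD, n = 4).

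Axin2 (chromosome 11, 108920349 to 108950783), the most general target of beta-catenin and part of the complex that degrades it, stood at 3.56, 2.49 and 3.02 CPM in the tumors, at 42.5, 28.1, 30.7 and 28.5 CPM in tumor-bearing lungs and at 19.8 to 30.1 CPM (median 23.1) in normal lungs. No tumor reached the lowest lung. Axin2 had log2 fold changes of -2.89 (SE 0.23, edgeR adjusted p = 1.46e-06) and -3.18 (SE 0.25, adjusted p = 1.61e-06). An antisense gene overlaps an exon of Axin2, as others do for Notum, Sfrp2, Wnt5a, Wnt7b and Rspo3, and an opposite-strand gene of another kind overlaps Fzd5, Fzd6 and Wnt11. Reads of such a pair cannot be told apart without strand.

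The ligases Znrf3 and Rnf43, which remove Frizzled receptors from the cell surface, differed less. Znrf3 stood at 21.2, 44.8 and 29.3 CPM in the tumors, at 30.2 to 48.5 CPM in tumor-bearing and at 23.3 to 34.3 CPM in normal lungs, with log2 fold changes of 0.31 (SE 0.25) and 0.027 (SE 0.28). Rnf43 stood at 14.1, 15.5 and 8.92 CPM in the tumors, at 11.1 to 17.8 CPM in tumor-bearing and at 7.61 to 18.9 CPM in normal lungs, with 0.077 (SE 0.31) and -0.038 (SE 0.32). Their edgeR adjusted p ran from 0.342 to 0.945, and the groups overlap. Among the feedback genes named at the outset, Axin2, Nkd1 and Notum fell together in the tumors while Znrf3 and Rnf43 did not pass.

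Prickle2, a cytoplasmic protein of planar cell polarity, stood at 1.54, 1.24 and 1.94 CPM in the tumors, at 114, 142, 129 and 101 CPM in tumor-bearing lungs and at 110 to 151 CPM (median 120) in normal lungs. The lungs varied little and no tumor came near them. Its log2 fold change was -6.19 (SE 0.22, edgeR adjusted p = 7.46e-09) against normal and -6.01 (SE 0.23, adjusted p = 1.54e-08) against tumor-bearing lungs. Markers of alveolar type 1 cells, lung fibroblasts and mesothelium fell with the lung members. The type 1 markers summed to 233 to 470, 4630 to 5310 and 3950 to 6150 CPM and the fibroblast markers to 413 to 538, 2980 to 4240 and 2940 to 4820 CPM in tumors, tumor-bearing and normal lungs. Those of mesothelium summed to 0.465 to 1.07, 56.1 to 142 and 33.5 to 166 CPM, with Upk3b, Upk1b, Muc16 and Gpm6a at 0 in the tumors. In tumors against normal lungs 11 of 12, 13 of 15 and 7 of 7 of these markers fell, and their part in the fall of Nkd1, Prickle2, Wnt2, Wnt3a, Wnt7a or Dkk3 was not tested.

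**Figure D4:**
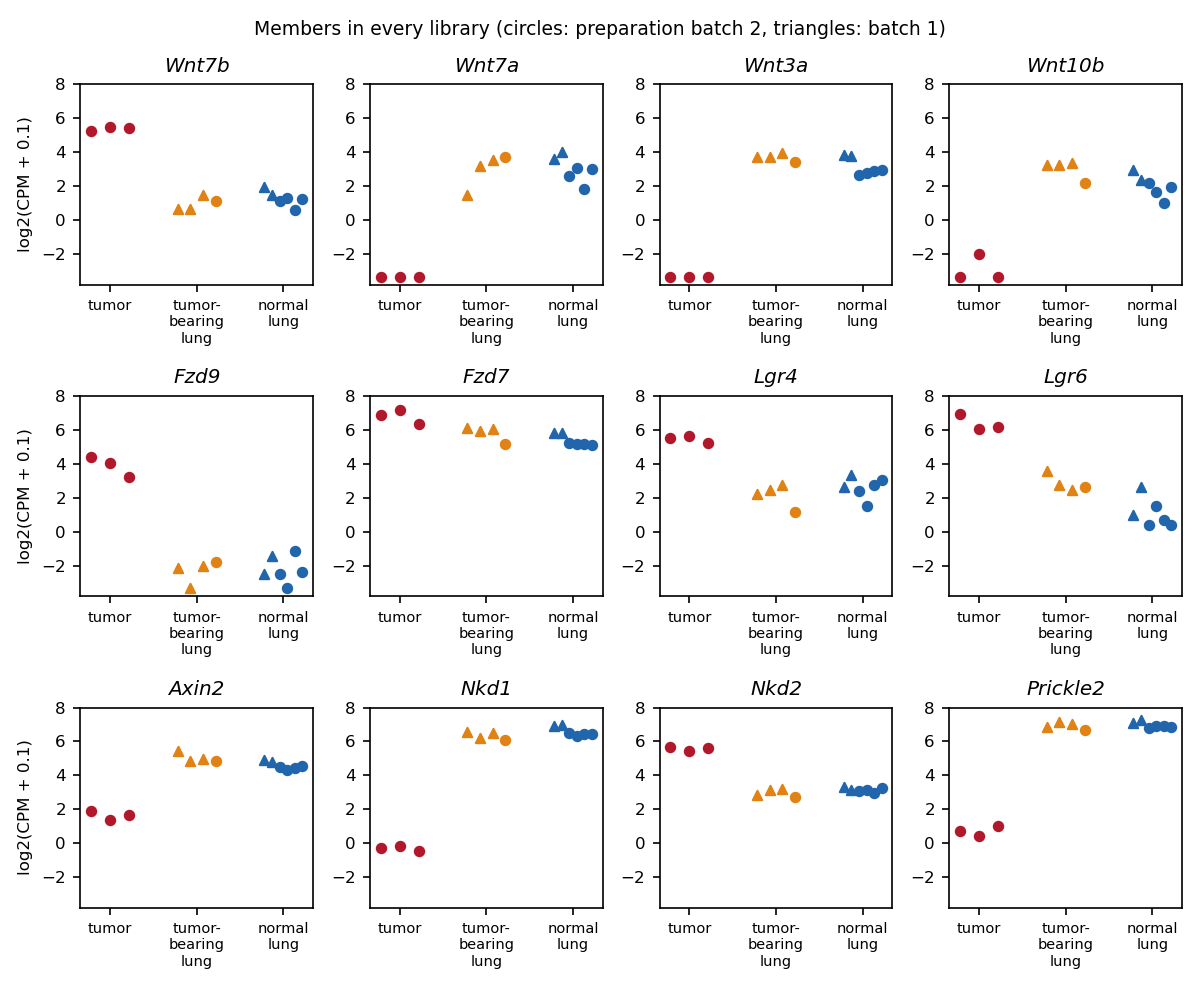
Level of 12 members in every library as log2(CPM + 0.1), with tumors (red) at the left, tumor-bearing lungs (orange) in the middle and normal lungs (blue) at the right; circles are batch 2 and triangles batch 1. Wnt7a and Nkd1 lie in the lungs and Wnt7b and Nkd2 in the tumors, with no overlap between tumors and lungs in any of the 12 panels.

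The overlap of single libraries was read beside the tests. Of the members called in tumors against normal lungs, 10 of 11 higher and 16 of 17 lower had no overlap between the groups, and against tumor-bearing lungs 9 of 11 and 15 of 16. Over all genes tested, 91.7% of those called higher and 92.4% of those called lower had no overlap in tumors against normal lungs, and 92.1% and 92.4% in tumors against tumor-bearing lungs, so that the members' shares lie near those of all called genes. The calls against normal lungs held for 26 of the 28 members in every fit that left out a library, and those against tumor-bearing lungs for 25 of 27. Exceptions were Lrp5 and Rspo1 against normal lungs, and Fzd6 and Rspo1 against tumor-bearing lungs. All 28 also passed against normal lungs with batch 2 libraries alone, in which tumors and normal lungs share their preparation. Batch 2 alone holds 1 tumor-bearing lung, and there 20 of 27 passed; Fzd6, Fzd8, Lrp5, Rspo1, Wnt2b, Wnt4 and Wnt5b did not (adjusted p 0.057 to 0.315).

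Tumor-bearing against normal lung is the comparison the study states as its purpose, the effect of a distal mammary tumor on the lung. None of the 37 members tested passed an adjusted p of 0.05 in edgeR, in DESeq2 or in voom of limma, where edgeR called 6 of all 16727 genes tested (0.0359%, with 0.012% higher and 0.0239% lower). At an unadjusted p under 0.05 there were 7 members, 4 positive and 3 negative (18.9%, with 14% of all genes). The median log2 fold change was 0.11 for the members and 0.014 for all genes. A difference that misses the threshold with 4 lungs a group is not shown to be absent, and SEs of the members ran from 0.11 for Fzd7 to 0.69 for Lgr5.

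The members with the smallest p were Fzd6 and Nkd1. Fzd6 stood at 26.2, 31.3, 36.1 and 22.5 CPM in tumor-bearing lungs 6879, 6880, 6881 and 6877 and at 14.2 to 21.2 CPM (median 18.4) in normal lungs. It was the 1 member of 37 (2.7%) whose tumor-bearing lungs lay all above every normal lung library, which held for 1.74% of all genes tested, and no member lay below, with 2.06% of all genes. An exon of Fzd6 overlaps a noncoding RNA gene on the opposite strand, so that its counts are uncertain without strand. The log2 fold change of Fzd6 was 0.53 (SE 0.16, unadjusted p = 0.00714, edgeR adjusted p = 0.219), 0.58 in batch 1 alone and 0.46 in batch 2 alone. Nkd1 stood at 93.9, 74.2, 91.0 and 67.4 CPM in tumor-bearing and at 80.0 to 124 CPM in normal lungs, which overlap over all libraries. Within batch 1 its tumor-bearing lungs lay below both normal libraries (118 and 124 CPM), and within batch 2 tumor-bearing lung 6877 lay below all 4 (80.0 to 88.7 CPM). The log2 fold change of Nkd1 was -0.42 (SE 0.12, unadjusted p = 0.00724, edgeR adjusted p = 0.220), -0.46 in batch 1 and -0.34 in batch 2. Mice 6886 and 6888 enter both batches, and batch 2 rests on 1 tumor-bearing lung. Nkd1 was named for its small p in these data. The share of all genes with such an order within a batch was not counted, so the order adds no support.

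Of the receptors, Fzd2 stood at 21.1, 23.8, 29.7 and 18.8 CPM in tumor-bearing and at 9.69 to 20.9 CPM (median 11.0) in normal lungs. Its log2 fold change was 0.53 (SE 0.17, unadjusted p = 0.0113, edgeR adjusted p = 0.244), with 0.41 and 0.86 in batches 1 and 2. Lgr6 stood at 11.9, 6.68, 5.48 and 6.09 CPM in tumor-bearing and at 1.91, 6.2, 1.19, 2.71, 1.5 and 1.19 CPM in the normal lung libraries, where the 6.2 CPM of mouse 6888 in batch 1 overlaps. The fold change of Lgr6 was 1.21 on the log2 scale (SE 0.44, unadjusted p = 0.0216, edgeR adjusted p = 0.290), with 1.01 and 1.89 in the batches. Lgr4 went the other way, at -0.78 (SE 0.39, unadjusted p = 0.0780, edgeR adjusted p = 0.410), -0.49 in batch 1 and -1.41 in batch 2. Lrp5, at 85.2 to 140 CPM in tumor-bearing and 86.6 to 177 CPM in normal lungs, had -0.29 (SE 0.12, unadjusted p = 0.0415, edgeR adjusted p = 0.341).

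Among ligands and antagonists, Wnt10b stood at 9.44, 9.5, 10.2 and 4.54 CPM in tumor-bearing and at 1.94 to 7.63 CPM (median 4.16) in normal lungs, with a log2 fold change of 0.54 (SE 0.21, unadjusted p = 0.0310, edgeR adjusted p = 0.317). It was 0.62 in batch 1, where all 3 tumor-bearing lungs lay above both normal libraries (7.63 and 5.14 CPM), and 0.45 in batch 2. As for Nkd1, the share of all genes with such an order was not counted. Dkk3 stood at 45.4, 51.4, 51.9 and 27.4 CPM in tumor-bearing and 28.4 to 65.8 CPM in normal lungs, with -0.32 (SE 0.12, unadjusted p = 0.0253, edgeR adjusted p = 0.299) and -0.38 and -0.27 in the batches. Wnt5a and Wnt7a pointed in opposite directions in the 2 batches, Wnt5a with 0.80 in batch 1 and -1.0 in batch 2, and Wnt7a with -0.82 and 1.03. Several members were higher in batch 1 than in batch 2 normal lungs, among them Wnt3a (13.8 and 14.1 against 6.19 to 7.67 CPM) and Fzd1 (63.7 and 68.2 against 34.5 to 36.5 CPM). Leukocyte markers summed to 214 to 353 CPM in tumor-bearing and 178 to 234 CPM in normal lungs, with 10 of 11 positive and a median log2 fold change of 0.59. Endothelial markers had 10 of 12 negative and a median of -0.30. None of the markers of either list passed in edgeR, with 6 of 11 and 5 of 12 at an unadjusted p under 0.05, beside 14% of all genes. DESeq2 called 3 leukocyte markers and 1 endothelial marker, and 361 of all 16727 genes. The part of these cells in the members' values was not tested.

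**Figure D5:**
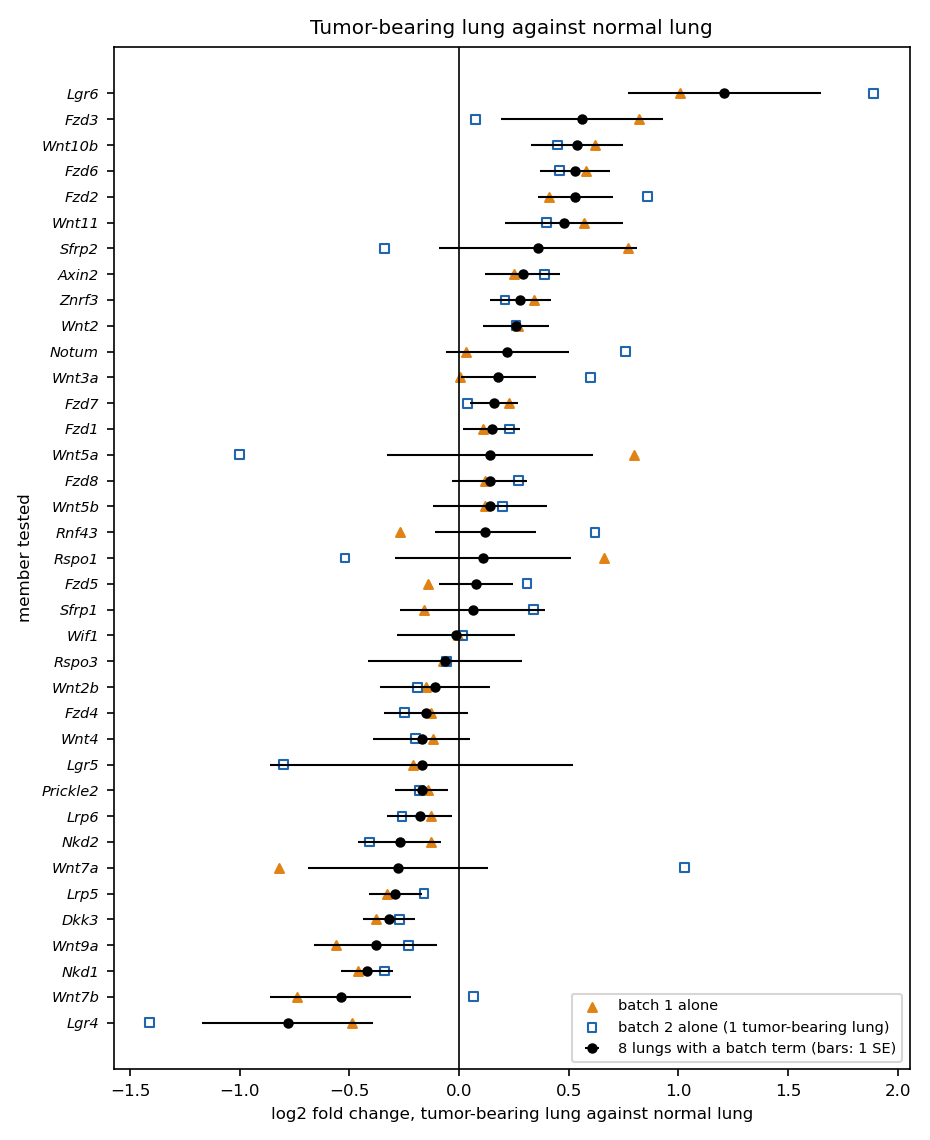
Log2 fold change of the 37 members tested in tumor-bearing against normal lung (black, bars of 1 SE, 8 lungs with a batch term), with the value in batch 1 alone (triangles) and in batch 2 alone (squares, 1 tumor-bearing lung). No member passed an adjusted p of 0.05, and Wnt5a and Wnt7a lie on opposite sides of 0 in the batches.

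Other genes of the pathway, 99 in number and listed by role, were read from the same fits. In tumors against normal lungs, 17 of the 82 tested rose and 29 fell (56.1%), and against tumor-bearing lungs 14 rose and 26 fell (48.8%), close to the 49.3% and 46.3% of all genes. In tumor-bearing against normal lungs 0 of 80 passed in edgeR, DESeq2 or voom, with 11 at an unadjusted p under 0.05 in edgeR (13.8%, with 14% of all genes). Of 6 genes for other ligands and for secretion, 3 were tested and 2 fell. Porcn, which attaches the lipid to Wnt proteins, fell to 2.58 ± 1.00 CPM in the tumors (SD, n = 3), against 10.1 ± 1.60 and 10.3 ± 0.671 CPM in tumor-bearing and normal lungs (SD, n = 4 each; log2 fold change -2.05 and -2.06). Wls, the carrier that brings Wnt proteins to the surface, stood at 81.1 ± 12.1 CPM in the tumors and 66.3 ± 14.5 and 80.4 ± 9.33 CPM in tumor-bearing and normal lungs (SD, n = 3, 4 and 4) and did not pass. Wls was picked for its role after its values were seen.

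Among co-receptors and their regulators, 3 of 9 rose and 3 fell in tumors against normal lungs. Ptk7, a co-receptor of planar cell polarity, rose by 1.37 (SE 0.19), and Reck and Adgra2, which together serve Wnt7a and Wnt7b signaling in brain vessels, fell by 3.46 (SE 0.29) and 2.18 (SE 0.21) on the log2 scale. Norrin (Ndp), a ligand of Fzd4, stood at 2.09 ± 0.739 CPM in the tumors (SD, n = 3), against 0.310 ± 0.374 and 0.190 ± 0.128 CPM in tumor-bearing and normal lungs (SD, n = 4 each). Of 23 genes of the cytoplasmic steps, 5 rose and 6 fell, among them the inhibitor of beta-catenin Ctnnbip1 at 2.82 (SE 0.30), Dact2 at 3.22 (SE 0.32), Dact1 at -2.40 (SE 0.26) and beta-catenin itself (Ctnnb1) at -0.97 (SE 0.21; edgeR adjusted p of at most 0.00254 for these 4).

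Of 15 common transcriptional targets tested, 5 rose and 6 fell in tumors against normal lungs. Sp5 fell by 5.96 (SE 0.83) and Tnfrsf19 by 2.11 (SE 0.37), as did the Notch ligand Jag1 by 2.63 and Ccn5 by 2.01. Sox9, Myc, Ccnd1 and Ephb3 rose by 6.68 (SE 0.35), 2.81 (SE 0.30), 1.60 (SE 0.21) and 1.06 (SE 0.14). The edgeR adjusted p was at most 6.17e-04 for each of the targets given here with an SE. The targets thus did not move 1 way. Proliferation markers rose with Myc and Ccnd1, 8 of 8 of them, at 598 to 677 CPM in the tumors, 25.7 to 38.9 in tumor-bearing and 20.4 to 38.0 CPM in normal lungs. Among 14 other genes of planar cell polarity tested, 2 rose and 6 fell, with Celsr2 at 2.56 (SE 0.27), Celsr1 at -3.73 (SE 0.27), Daam2 at -4.11 (SE 0.24) and Prickle1 at -2.32 (SE 0.22), so that Prickle1 fell like Prickle2. Against tumor-bearing lungs the values of these 4 were 2.75, -3.94, -3.88 and -2.26. Of the 14 nuclear factors, 1 rose and 5 fell. Of those that fell, Sox17, which binds beta-catenin and marks vessels, stood at 1.21 ± 0.740 CPM in the tumors (SD, n = 3), against 30.4 ± 9.73 and 23.0 ± 6.17 CPM in tumor-bearing and normal lungs (SD, n = 4 each). The 4 TCF/LEF genes Tcf7, Tcf7l1, Tcf7l2 and Lef1 passed in none of the 3 comparisons; they too were picked for their role after their values were seen.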

How the data were processed

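RNA of whole tissue (20 mg, of which 100 ng RNA entered a ribosomal RNA depleting library kit) was sequenced as single-end reads of 75 bases, per the labels' protocols. Salmon, DESeq2 1.18.1 and the build mm10 are named in the submitters' processing notes. The deposited tables give, per gene ID and library, estimated counts and TPM by the authors; the strand setting is not given in the sources used here. Gene names came from GENCODE M21, which named 46269 of 46679 IDs, and coordinates are on GRCm38.

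Estimated counts were rounded, filtered on low counts and TMM-scaled, and tested with edgeR 4.0.16 (quasi-likelihood, batch as a term) in R 4.3.3; limma 3.58.1 and DESeq2 1.42.0 were alternatives. The lung comparison used 8 lungs and the tumor comparisons 11 libraries, with the batch 1 library of mice 6886 and 6888. The 3 comparisons share samples pairwise. Totals of 8321037 to 13982903 estimated counts limit the low genes most. The members were taken by symbol, but the member and gene lists were drawn up with earlier results of these data known. Values per library (for the 6 normal lung libraries, the lowest, median and highest) are given for called members whose tumors and lungs do not overlap (up to 12 in each direction by fold change), for the 4 members with the smallest unadjusted p in each direction between lungs, and for the 5 members with the highest mean TPM in a group; other pathway genes named are among the 4 called with the smallest p per list and direction, unless stated. Tumor and lung of 3 mice are paired by animal, and their deviations from the group means correlated by 0.179, 0.0355 and -0.133. Blocked values stand beside the calls they changed. The block of the 3 pairs took the place of the batch term, and the tumors and lungs of mice 6880 and 6881 differ in batch. The block over all 13 libraries kept the batch term. There the consensus correlation of libraries of the same mouse was 0.0787, so repeats of 6886 and 6888 counted almost as separate mice.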

Additional observations from a re-analysis of the deposited data

Results flagged for a closer look

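In tumor-bearing lung 6877, Wnt2 stood at 11.8 CPM, apart from 16.4 to 17.3 CPM in the other 3 tumor-bearing lungs, and the gap was 0.838 of the group's range. Wnt10b stood at 4.54 CPM in the same lung, apart from 9.44 to 10.2 CPM in the others, with a gap of 0.87 of the range. Both exceed the critical value of 0.829 for 4 samples. Of 74 groups of members searched, these 2 stood apart, and chance alone flags about 5% of groups. Lung 6877 is the only tumor-bearing lung of batch 2, so that batch and library cannot be told apart here. Normal lungs of batch 2 stood at 8.4 to 10.9 CPM for Wnt2 and 1.94 to 4.48 CPM for Wnt10b.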

How the results depend on the processing

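Of the members, 26 to 31 were called in tumors against normal lungs under 24 alternatives (26 to 29 leaving out a library) and 14 to 30 against tumor-bearing lungs under 25 (26 to 29 leaving out a library); the lowest, 14, came with log2(TPM + 1). With the mouse as a replicate block in the 3 pairs and no batch term, 27 members were called against tumor-bearing lungs, 24 of them shared. No member was called in tumor-bearing against normal lungs under 22 alternatives. There, uncalled values changed sign with the repeated mice's libraries summed and no batch term (Dkk3 0.13, Lrp5 0.10) and with log2(TPM + 1) and log2(TPM + 0.1) (Fzd2 -0.072 and -0.16, Fzd6 -0.063 and -0.15, Wnt10b -0.045 and -0.13); the median of all genes was -0.23 and -0.54 on these TPM scales. Tumor-bearing lungs also had the lowest protein-coding shares of TPM, 1.77 to 3.73%, beside 4.14 to 6.5% in normal lungs. The cause of the sign changes was not tested. All genes called there, 6, became 275 with no filter, 90 and 65 on the TPM scales, 1 with no batch term, 1 with the batch 2 library of repeated mice, 2 with repeats summed, 26 in voom over 13 libraries with the mouse as a replicate block, 39 in batch 1 alone, 2 with 11 libraries, 361 in DESeq2, and 0 to 221 leaving out a library (221 without tumor-bearing lung 6877). Other pathway genes called in tumors against normal lungs became 29 and 30 on the TPM scales. Against tumor-bearing lungs they became 16 with log2(TPM + 1) and 23 in batch 2 alone, and all genes called became 5322 with log2(TPM + 1), 3927 in batch 2 alone and 5530 with only the 2 groups fitted. Restricting the tests to protein-coding genes, chosen after seeing the data, called 28 members in each tumor comparison. All tumors are of batch 2, and low counts limit the sizes given for Wnt3a, Wnt7a, Wnt10b and Fzd9.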
